A study of Arabidopsis thaliana with 24 samples.

Results

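Of the 22810 probe sets on the arrays, 6 report the transcripts of 3 ferritins (FER1, FER3 and FER4) and 3 superoxide dismutases (the iron enzyme FSD1 and the copper/zinc enzymes CSD1 and CSD2) of Arabidopsis thaliana. They were taken by probe set and locus: 251109_at for FER1 (At5g01600), 251735_at for FER3 (At3g56090), 263831_at for FER4 (At2g40300), 254098_at for FSD1 (At4g25100), 264809_at for CSD1 (At1g08830) and 266165_at for CSD2 (At2g28190). Each gene is followed here through 8 groups of 3 arrays, so through 24 arrays. The study compared pnp1-1 (SALK_013306), which lacks the polynucleotide phosphorylase of the chloroplast, with WT Col0, on medium without phosphate (-P) and with phosphate (+P). All seedlings, in every group, first spent 2 weeks on full medium (0.5% sucrose, 22 °C, 16 h of light a day at 200 µmol m-2 s-1). They were rinsed and moved to fresh -P or +P medium for 3 h or for 1 week, and in -P the potassium was made up with sulfate. The 8 groups are thus pnp1-1 on -P, pnp1-1 on +P, WT on -P and WT on +P, each at 3 h and at 1 week. A replicate is at least 4 seedlings whose roots had been removed, and pnp1-1 is a single line. Levels are linear intensities of a probe set, and differences are of log2 intensity with standard errors from limma, always pnp1-1 minus WT or -P minus +P.

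Ferritins are iron storage proteins of the plastids, and FER1, FER3 and FER4 are the forms of vegetative tissue, whereas FER2 is the form of seeds. In Arabidopsis FER1 transcription is known to respond to iron excess and, through the phosphate regulators PHR1 and PHL1, to phosphate starvation. Superoxide dismutases turn superoxide into hydrogen peroxide: FSD1 uses iron, CSD1 is the copper/zinc enzyme of the cytosol and CSD2 that of the chloroplast. When copper is scarce, the microRNA miR398 is known to lower the transcripts of CSD1, CSD2 and of CCS, the chaperone that gives these enzymes their copper, while FSD1 is raised.

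Mean intensities were 470 to 503 on the 12 arrays at 3 h and 593 to 612 on the 12 at 1 week, and each array had 40.3% to 41.5% of its probe sets under an intensity of 16. With no overlap of these means between the times, time and batch cannot be told apart, and no level at 3 h is set against one at 1 week. At 1 week, 3 arrays (pnp1-1 -P replicate 1, pnp1-1 +P replicate 2 and WT -P replicate 1) had a lower quartile of 6.37 to 6.46, against 5.42 to 5.78 on the other arrays of that time. Replicates 2 and 3 of WT on +P at 1 week were unusually alike: their log2 values differed with an SD of 0.267, where other replicate pairs had 0.359 to 0.696, and results that move with these arrays are given with and without them. Of the leaf markers 1 of 6 had a listed probe set, RCA (rubisco activase), which ran from 17512 to 36283. Of the root markers 2 of 5 had one: EXPA7, a root hair expansin, lay at background (3.32 to 3.59), whereas PYK10, a beta-glucosidase of roots and seedlings, was measured at 852 to 11246. The transcript of the mutated gene and the phosphate starvation genes chosen to check the labels had no listed probe set and were not analysed here.

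**Figure D1:**
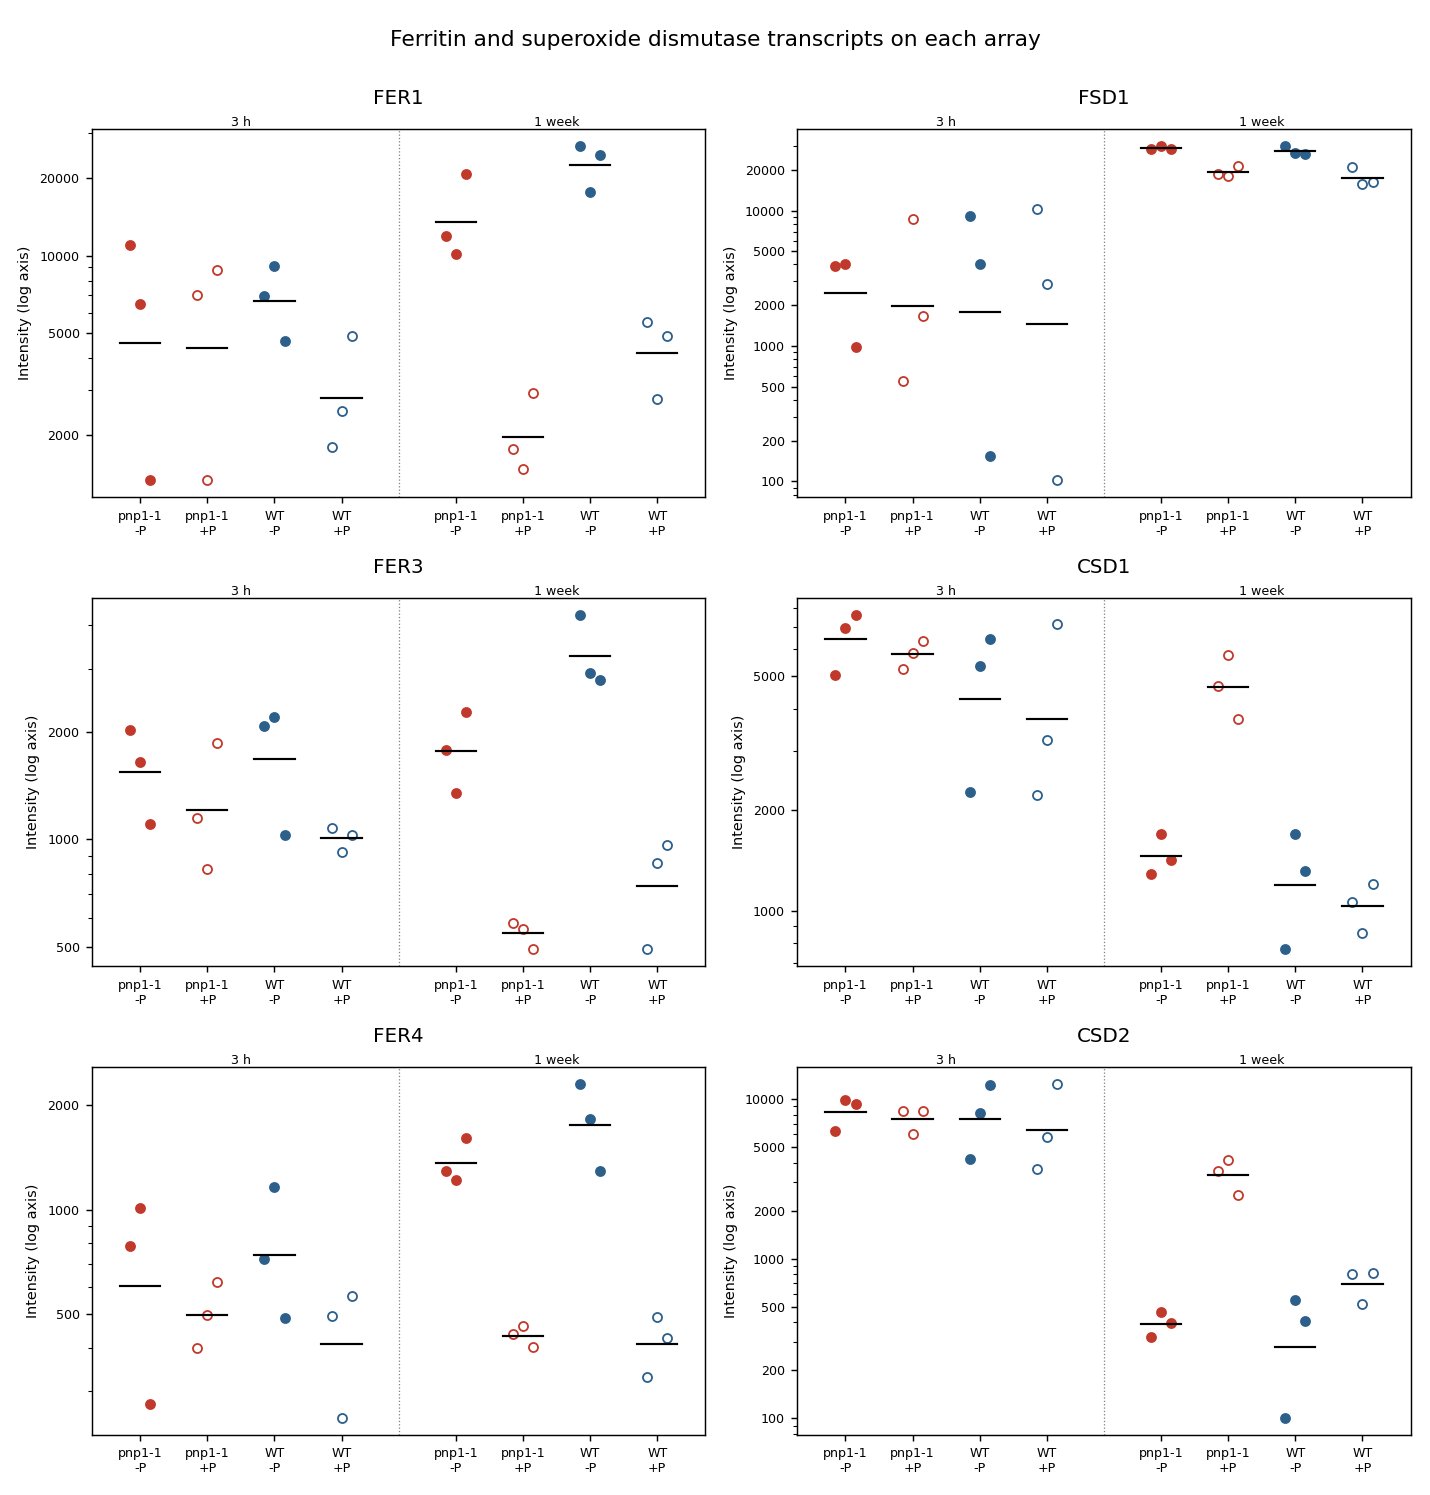
Intensity of each of the 6 probe sets on every array (log axis), by genotype and medium, with 3 h left and 1 week right of the dotted line in each panel. Red points are pnp1-1 and blue points WT, filled on -P and open on +P, and the black bar is the mean of the log2 values. At 1 week the filled ferritin points lie above the open ones of their genotype, and the open pnp1-1 points of CSD1 and CSD2 lie above all other points of that time.

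After 1 week the -P arrays lay above the +P arrays for all 3 ferritins in both genotypes, by mean differences of about 3- to 7-fold. Of these, FER3 passed the test in both genotypes and FER4 in WT, and the others fell just short of it. FER1, the best studied of the ferritins, had intensities of 11914, 10119 and 20772 on pnp1-1 -P arrays, against 1763.5, 1479 and 2927 on pnp1-1 +P arrays. On WT -P arrays FER1 was at 26769, 17665 and 24641, against 5502, 2756 and 4856 on WT +P arrays. Every -P array was above every +P array, of either genotype. The -P difference of FER1 was 2.79 ± 0.70 in pnp1-1 (6.90-fold, 95% interval 1.31 to 4.27, adjusted p = 0.0816) and 2.44 ± 0.70 in WT (5.41-fold, 0.95 to 3.92, adjusted p = 0.0670). Neither passed the threshold of an adjusted p under 0.05, although these were the most sizeable differences among the ferritins. With the 12 arrays of 1 week fitted alone, whose replicates of FER1 are less spread than those at 3 h, the same differences passed, with adjusted p = 0.00573 in pnp1-1 and 0.00699 in WT. With single arrays left out they did not pass, with adjusted p of 0.113 to 0.335 in pnp1-1 and 0.0661 to 0.276 in WT.

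FER3 was at 1779, 1352 and 2279.7 on pnp1-1 -P arrays and at 583, 562 and 494 on pnp1-1 +P arrays. In WT, FER3 was at 4261, 2934 and 2792 on -P and at 492, 858 and 964 on +P. Again no -P array fell among the +P arrays, and the WT -P arrays were the highest of all. FER3 rose on -P by 1.69 ± 0.34 in pnp1-1 (3.24-fold, adjusted p = 0.0141) and by 2.14 ± 0.34 in WT (4.41-fold, adjusted p = 0.00129). The pnp1-1 call was lost without the 3 arrays of raised lower quartile (1.71, adjusted p = 0.139), and without pnp1-1 +P replicate 2 (0.0556), +P replicate 3 (0.0665) or -P replicate 3 (0.0972), while the WT call was lost with the compared groups fitted alone (0.0534).

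FER4, a ferritin found in plastids and mitochondria, was at 1297, 1215 and 1611 on pnp1-1 -P arrays, against 439, 463 and 401 on pnp1-1 +P arrays. For WT the FER4 values were 2308, 1831 and 1290.2 on -P, against 329, 490 and 428 on +P. The media were separated in both genotypes, whereas the genotypes overlapped on each medium. FER4 rose on -P in WT by 2.101 ± 0.412 (4.29-fold, adjusted p = 0.00806). In pnp1-1 its difference was 1.65 ± 0.41 (3.15-fold, adjusted p = 0.0751), which missed the threshold, and passed it with the arrays of 1 week fitted alone (0.00577). With single arrays left out it did not pass (0.161 to 0.284). Without the 3 arrays of raised lower quartile the WT call of FER4 was lost (1.91, adjusted p = 0.0682).

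FSD1 was bright and evenly expressed at 1 week, and its -P arrays also lay above its +P arrays in both genotypes, by a smaller factor than for the ferritins. It was at 28403, 29998.5 and 28458 on pnp1-1 -P arrays and at 18521, 17907 and 21473 on pnp1-1 +P arrays. In WT it was at 29980.5, 26818 and 26136 on -P and at 21136, 15651 and 16338 on +P. The lowest -P array of either genotype was above the highest +P array. The -P difference was 0.59 ± 1.44 in pnp1-1 (1.504-fold, adjusted p = 1) and 0.65 ± 1.44 in WT (1.57-fold, adjusted p = 0.905). These standard errors hold the spread at 3 h as well, where the SD within groups was 2.59 on the log2 scale, against 0.148 at 1 week. With the arrays of 1 week fitted alone the error was 0.12, and the adjusted p was 0.0722 in pnp1-1 and 0.0199 in WT.

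For both copper/zinc dismutases the -P arrays of pnp1-1 lay below the +P arrays at 1 week, and the difference passed the test for CSD2. CSD1 was at 1290.1, 1698 and 1416 on pnp1-1 -P arrays, against 4656, 5772 and 3721 on pnp1-1 +P arrays. On WT arrays CSD1 was at 769, 1698 and 1310.2 on -P, against 1059.6, 859.8 and 1202 on +P. The pnp1-1 +P arrays stood alone above the other 9 arrays of that time, among which WT -P overlapped both other groups and pnp1-1 -P lay above WT +P. CSD1 differed between the media by -1.67 ± 0.40 in pnp1-1, 3.18-fold lower on -P (95% interval -2.51 to -0.83, adjusted p = 0.0574), just short of the threshold. It passed in 8 of the 16 alternatives tried, with adjusted p of 0.0241 where the arrays of 1 week were fitted alone. These include a fit with array weights, under which 9242 of all 22746 probe sets were called. In the other 8 it did not pass, with adjusted p of 0.458 at most, and of 0.0825 to 0.26 where single arrays were left out. In WT the difference was 0.21 ± 0.40 (95% interval -0.62 to 1.05, adjusted p = 0.905).

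CSD2 was at 322, 466 and 395 on pnp1-1 -P arrays, against 3545, 4144 and 2502 on pnp1-1 +P arrays. WT arrays gave 100.2, 547 and 405 on -P and 801, 520.4 and 811 on +P. In pnp1-1 the media were far apart, whereas in WT 1 of the -P arrays lay among the +P arrays, and the lowest, replicate 1, is 1 of the 3 arrays of raised lower quartile. CSD2 fell on -P in pnp1-1, with a difference of -3.09 ± 0.53, 8.53-fold lower (adjusted p = 0.00403), a call that held in each alternative tried, with adjusted p of 0.0291 at most. In WT its difference was -1.31 ± 0.53 (adjusted p = 0.219).

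Counted over the 6 genes, 2 were called in the -P response of pnp1-1 at 1 week (FER3 higher, CSD2 lower), where 0.941% of all 22746 probe sets tested were called. All 6 had -P and +P arrays that did not overlap, 4 higher and 2 lower, which 9.29% of all probe sets did. In WT 2 were called (FER3 and FER4, both higher) against 3.43% of all probe sets, and the arrays of 4 did not overlap, against 17.3%. The median log2 difference of the 6 genes was 1.12 in pnp1-1 and 1.38 in WT, beside -0.02 and 0.02 over all probe sets. The difference of the -P response between the genotypes (pnp1-1 minus WT) was -1.88 ± 0.56 for CSD1 (unadjusted p = 0.00372, adjusted p = 0.500) and -1.78 ± 0.75 for CSD2 (adjusted p = 0.858). For the ferritins and FSD1 it lay between -0.45 and 0.35, with adjusted p of 0.941 or more. Thus 0 of the 6 genes were called by limma in this test, where 0.0791% of all probe sets were called. An unadjusted p under 0.05 was found for 2 of the 6 genes and for 1185 of all 22746 probe sets. A difference between genotypes in the -P response was not shown for any of the 6 genes. The pnp1-1 and WT responses share no arrays.

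**Figure D2:**
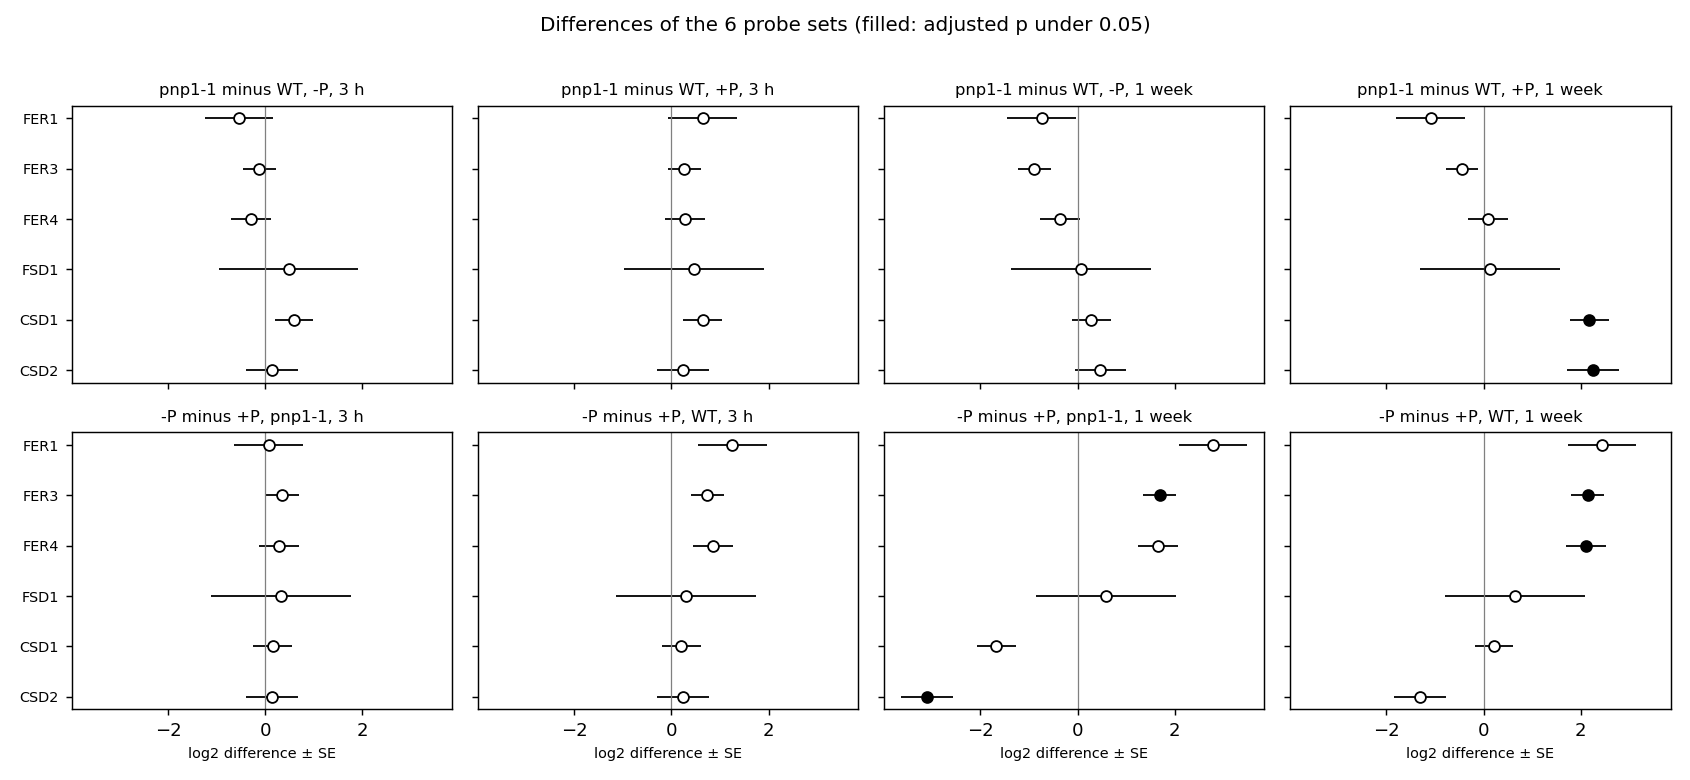
Log2 difference (horizontal axis) of each of the 6 genes in the 8 pairwise comparisons, with bars of ± 1 SE and filled points where the adjusted p was under 0.05. The filled points are CSD1 and CSD2 for pnp1-1 minus WT on +P at 1 week, FER3 and CSD2 for -P minus +P in pnp1-1 at 1 week, and FER3 and FER4 for -P minus +P in WT at 1 week.

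Between the genotypes at 1 week, CSD1 and CSD2 were each higher in pnp1-1 than in WT on +P, by about the same factor. CSD1 rose by 2.17 ± 0.40 (4.50-fold, 95% interval 1.33 to 3.01, adjusted p = 0.00302) and CSD2 by 2.26 ± 0.53 (4.77-fold, 1.14 to 3.37, adjusted p = 0.0146). For both genes the 3 pnp1-1 +P arrays given above lie over the 3 WT +P arrays. The same 3 pnp1-1 +P arrays enter the -P response of pnp1-1, so these rises are not independent of the falls on -P given above. These are 2 of the 6 genes, where 7.35% of all probe sets were called, and where 25% had groups that did not overlap. The call of CSD2 was lost with WT +P replicates 2 and 3 averaged to 1 array (2.20, adjusted p = 0.0534), and without WT +P replicate 2 (0.0773), pnp1-1 +P replicate 1 (0.0576) or pnp1-1 +P replicate 2 (0.0760). The root marker PYK10 moved with genotype in the same groups, at 9549.8 to 11246 in pnp1-1 and 857 to 1138 in WT on +P, with EXPA7 at background in both, and its part in the result was not tested. Arrays of whole shoots cannot tell fewer or more cells of a type from less or more RNA per cell.

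On +P the ferritins gave no call between the genotypes at 1 week. FER1 gave the most sizeable difference of the 3, -1.09 ± 0.70 (95% interval -2.57 to 0.39, adjusted p = 0.436) and 1 array overlapping. FER3 differed by -0.44 ± 0.34 (adjusted p = 0.491), FER4 by 0.08 ± 0.41 (adjusted p = 0.914) and FSD1 by 0.13 ± 1.44 (adjusted p = 0.962). On -P 0 of the 6 genes were called by limma, where 1.64% of all probe sets were called. An unadjusted p under 0.05 was found for 2466 of all 22746 probe sets and for 1 of the 6 genes. That gene was FER3, at 0.540 times its WT level in pnp1-1 (-0.89 ± 0.34, 95% interval -1.60 to -0.18, adjusted p = 0.268), and the only 1 of the 6 whose genotypes did not overlap on -P, as 12.4% of all probe sets did. CSD1 and CSD2, which parted the genotypes on +P, differed on -P by 0.29 ± 0.40 (95% interval -0.55 to 1.12) and 0.47 ± 0.53 (-0.65 to 1.59), each with adjusted p = 1. The median over the 6 genes was -0.15 on -P and 0.11 on +P, beside 0.01 and 0.05 over all probe sets.

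By order of mean log2 level at 1 week, FER1 and FER3 ran from WT on -P through pnp1-1 on -P and WT on +P to pnp1-1 on +P, where neighbouring groups were apart at pnp1-1 -P over WT +P for both genes and at WT -P over pnp1-1 -P for FER3. FER4 had the same order but for its 2 +P groups, which overlapped. FSD1 ran from pnp1-1 -P and WT -P, which overlapped, to pnp1-1 +P and WT +P, which overlapped too. CSD1 was highest in pnp1-1 +P, apart from the rest, followed by pnp1-1 -P, WT -P and WT +P, where WT -P overlapped both of its neighbours and pnp1-1 -P was apart from WT +P. CSD2 was likewise highest in pnp1-1 +P, apart from the rest, followed by WT +P, pnp1-1 -P and WT -P, where pnp1-1 -P was apart from WT +P and WT -P overlapped both.

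CCS and the 2 genes of a copper list that had listed probe sets are set beside these values at 1 week. Of a list of 6 other genes of ferritins, superoxide dismutases and their chaperone, 1 had a listed probe set, CCS. CCS, the copper chaperone, was at 363, 374 and 328 on pnp1-1 -P arrays, 1243, 1411 and 1105 on pnp1-1 +P arrays, 292, 539.5 and 442 on WT -P arrays and 571, 641 and 704 on WT +P arrays. Like CSD2 it was highest in pnp1-1 on +P, with no overlap with the other groups. It was not called: its difference was 0.97 ± 0.49 between pnp1-1 and WT on +P (adjusted p = 0.283) and -1.81 ± 0.49 between -P and +P in pnp1-1 (adjusted p = 0.121). Of a list of 18 genes of copper transport, copper proteins and their regulators, 2 had a probe set, and 1 of them, ARPN (plantacyanin, a small copper protein), rose in pnp1-1. ARPN was at 2491, 1954 and 1813 in pnp1-1 on +P and at 122, 35.1 and 52.1 in WT on +P, a rise of 5.09 ± 0.64 (34.1-fold, adjusted p = 0.000123). The median of both list genes in that comparison was 2.76, with the second at 0.42 ± 0.17, beside 0.05 over all probe sets. On -P at 1 week ARPN was at 430.4, 471 and 313 in pnp1-1 and 75.0, 169 and 126 in WT (1.77 ± 0.64, adjusted p = 0.232), and at 3 h on -P it rose by 3.12 ± 0.64 (adjusted p = 0.00977). At 3 h on +P its genotypes overlapped and it was not called (1.65 ± 0.64, adjusted p = 0.139). The other gene, AT3G15640, ran from 1548 to 2033 in pnp1-1 on +P and from 1230.4 to 1412 in WT on +P, and was not called in any pairwise comparison. It falls outside the rule for naming genes and was named after its values were seen.

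**Figure D3:**
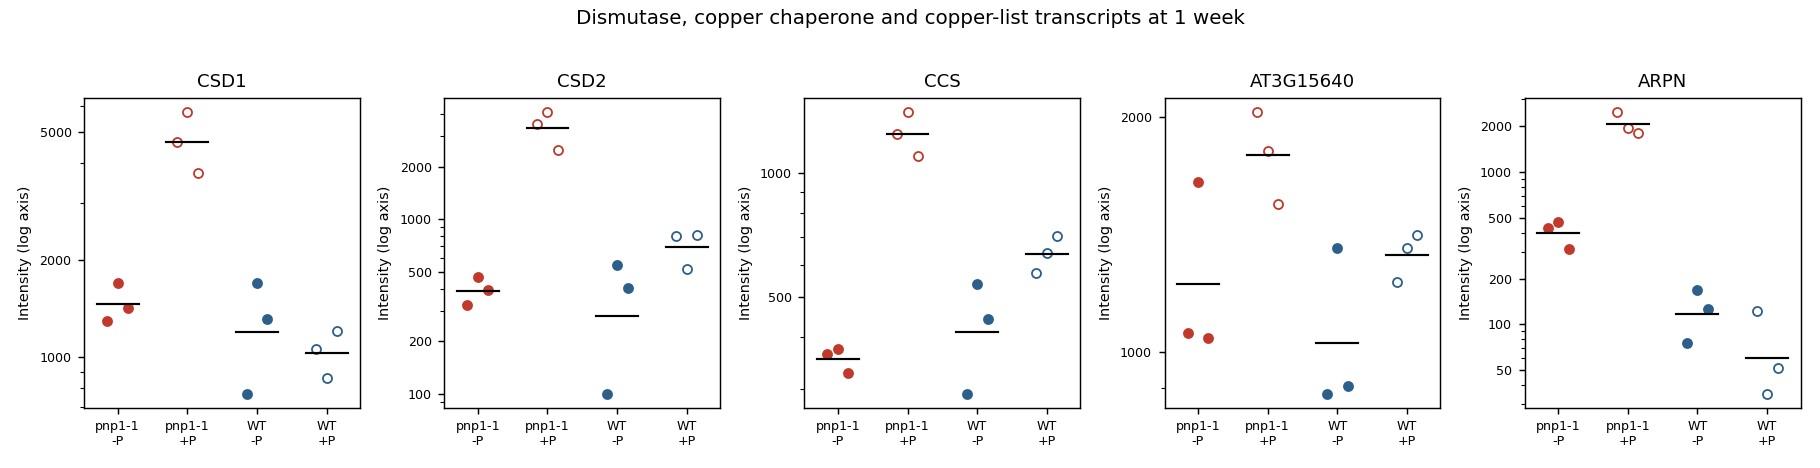
Intensity (log axes, a scale of its own per gene) of CSD1, CSD2, CCS, AT3G15640 and ARPN on the 12 arrays at 1 week. Red is pnp1-1, blue is WT, filled points are -P, open points are +P and bars are means of the log2 values; in each panel the mean of the open red points is the highest of the 4 groups.

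At 3 h after transfer 0 of the 6 genes were called in any of the 4 pairwise comparisons, and each gene's groups overlapped. For pnp1-1 against WT, 4.26% of all probe sets were called on -P and 7.41% on +P, and 20.5% on either medium had groups that did not overlap. An unadjusted p under 0.05 was found for 0 of the 6 genes on either medium, beside 3643 of all probe sets on -P and 4583 on +P. In the -P response 0.00879% of all probe sets were called in pnp1-1 and 0 in WT, while 283 and 817 had an unadjusted p under 0.05. Of the 6 genes, 0 in pnp1-1 and 1 in WT, FER3, had one. Of all probe sets, 3.35% in pnp1-1 and 6.87% in WT had -P and +P arrays that did not overlap. The median of the 6 genes was 0.21 in pnp1-1 and 0.52 in WT, beside -0.0008 and -0.02 over all probe sets.

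FER1 at 3 h was at 10959.8, 6484 and 1334 on pnp1-1 -P arrays, against 7012.5, 1331 and 8813 on pnp1-1 +P arrays. WT arrays gave 6943, 9144 and 4641 on -P and 1800.2, 2477 and 4861 on +P. In pnp1-1 both media held 1 array far below the other 2, and in WT the -P arrays were the higher except for replicate 3. The -P difference of FER1 was 0.07 ± 0.70 in pnp1-1 (95% interval -1.41 to 1.55) and 1.25 ± 0.70 in WT (-0.23 to 2.74), each with adjusted p = 1. Between arrays of the same replicate number it was 0.64, 2.28 and -2.72 in pnp1-1 and 1.95, 1.88 and -0.07 in WT.

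FER3 and FER4 gave the same picture in WT at 3 h. FER3 was at 2081, 2202 and 1029 on WT -P arrays, against 1075, 922 and 1030 on WT +P arrays, with a difference of 0.74 ± 0.34 (unadjusted p = 0.0435, adjusted p = 1). FER4 was at 722.5, 1159.9 and 486 on WT -P arrays, against 493, 251 and 563 on WT +P arrays (0.85 ± 0.41, adjusted p = 1). Replicates 1 and 2 were higher on -P and replicate 3 was not, for each of the 3 ferritins. In pnp1-1 FER3 was at 2029, 1643 and 1101 on -P and 1147, 826 and 1862 on +P (0.35 ± 0.34). FER4 was there at 785, 1014 and 275 on -P and 399, 497 and 619 on +P (0.28 ± 0.41). Here too replicates 1 and 2 were higher on -P and replicate 3 was lower, for all 3 ferritins. At 1 week the 3 ferritins were higher on -P for each of the replicate numbers of both genotypes, by 1.27 to 3.12. Any matching of arrays would give this, since the -P and +P arrays of a genotype did not overlap there. The change of the WT -P response between the times, 1 week minus 3 h, was 1.18 ± 0.99 for FER1, 1.41 ± 0.48 for FER3 (adjusted p = 0.376) and 1.25 ± 0.58 for FER4 (adjusted p = 0.629). By limma 0 of the 6 genes were called there, where 0.457% of all probe sets were called. An unadjusted p under 0.05 was found for 2 of the 6 genes and for 1760 of all 22746 probe sets.

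FSD1 differed more between replicates at 3 h than nearly any other probe set. It was at 3899.9, 4001.5 and 977 on pnp1-1 -P arrays, against 551, 8658 and 1653 on pnp1-1 +P arrays. On WT arrays FSD1 was at 9099, 4018 and 154 on -P and at 10304, 2874 and 102 on +P. All 4 groups overlapped, and each WT medium held a high, a middle and a low array, with the same replicate number high and the same one low on both media. The SD of FSD1 within groups, 2.59 on the log2 scale, was the third highest among the 14705 probe sets above an intensity of 16 in a group (median 0.306), and its 12 arrays spanned a 101-fold range. The standard error of a difference of FSD1 at 3 h was 1.44, and none was called. Over all probe sets, same-numbered arrays deviated together between media at 3 h in both genotypes. In WT the -P difference was 0.30 ± 0.19 with the replicate number as a block (adjusted p = 0.645), and -0.18, 0.48 and 0.59 between arrays of the same number. With the block it was 0.32 ± 0.96 in pnp1-1, and 2.82, -1.11 and -0.76 between arrays of the same number. The difference between the genotypes on -P was 0.48 ± 0.88 with the block (adjusted p = 1 for both block fits).

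In WT at 3 h, CSD1 and CSD2 varied between replicates in the order opposite to FSD1. CSD1 was at 5048, 6949 and 7607 on pnp1-1 -P arrays and 5250.5, 5846 and 6351 on pnp1-1 +P arrays, and at 2251, 5358 and 6456 on WT -P arrays and 2219, 3233 and 7138 on WT +P arrays. For CSD2 the values were 6290.2, 9862 and 9318 on pnp1-1 -P, 8458, 6016 and 8443 on pnp1-1 +P, 4226, 8228 and 12284 on WT -P and 3624, 5813 and 12472.5 on WT +P. In WT, replicate 1 had the highest FSD1 and the lowest CSD1 and CSD2 on each medium, and replicate 3 the lowest FSD1 and the highest CSD1 and CSD2. Over the 12 arrays, after each group's mean was taken off, FSD1 correlated with CSD2 at r = -0.89 (Spearman -0.85) and with CSD1 at r = -0.79 (Spearman -0.69). Without the 2 arrays of lowest FSD1, WT -P and WT +P replicate 3, these came to -0.77 and -0.56 over 10 arrays. Within the 6 arrays of pnp1-1 they were -0.65 and -0.14, and within the 6 of WT -0.95 and -0.89. These are descriptions with no test, since same-numbered WT arrays at 3 h deviated together and are not independent points. At 1 week the same correlations were -0.28 for CSD2 and -0.33 for CSD1, where FSD1 hardly varied within groups. CSD1 and CSD2 correlated with each other at r = 0.95 over the 12 arrays of either time.

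**Figure D4:**
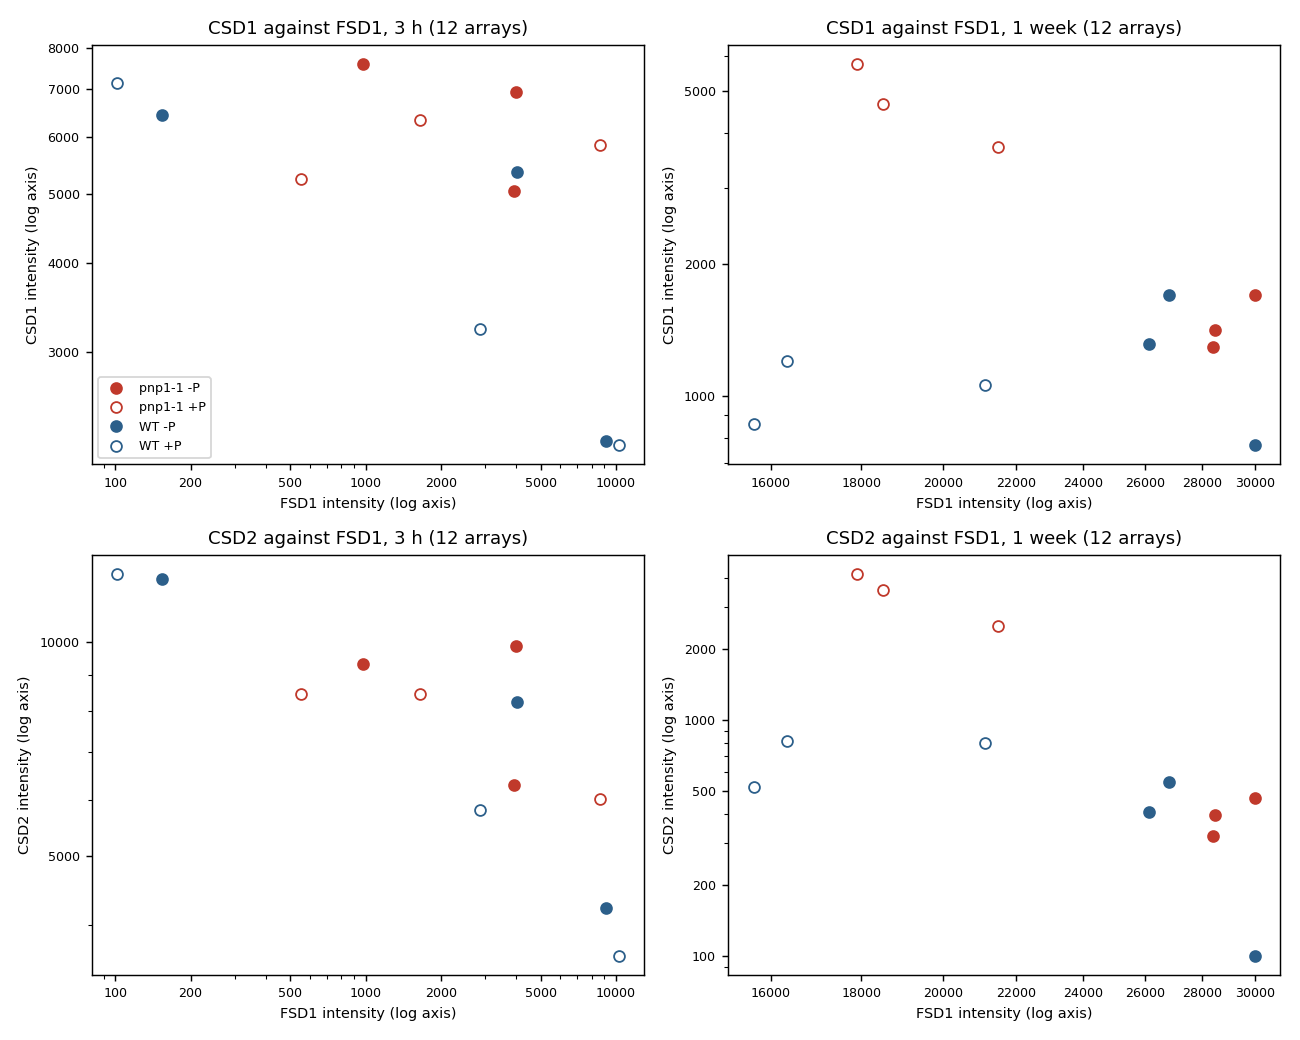
CSD1 (top) and CSD2 (bottom) intensity against FSD1 intensity on the 12 arrays at 3 h (left) and at 1 week (right), all axes logarithmic and scaled per panel. Red is pnp1-1, blue is WT, filled points are -P and open points +P; at 3 h the WT arrays run from high FSD1 and low CSD1 and CSD2 to the reverse, and at 1 week the open red points lie above the rest.

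The genotype difference on +P changed between the times, 1 week minus 3 h, by 1.53 ± 0.56 for CSD1 (adjusted p = 0.351) and by 2.02 ± 0.75 for CSD2 (adjusted p = 0.356). At 3 h on +P the genotypes differed by 0.64 ± 0.40 for CSD1 (95% interval -0.20 to 1.48) and by 0.24 ± 0.53 for CSD2 (-0.88 to 1.36). By limma 0 of the 6 genes were called in this test, where 0.136% of all probe sets were called. An unadjusted p under 0.05 was found for 2 of the 6 genes, CSD1 and CSD2, and for 2178 of all 22746 probe sets. The difference of the -P response between genotypes at 3 h lay between -1.19 for FER1 and 0.02 for FSD1, with 0 genes called, 0 at an unadjusted p under 0.05, and 0 of all probe sets called, 684 of them at an unadjusted p under 0.05.

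Over the 24 arrays, after the mean of each time was taken off, FER3 correlated with FER4 at r = 0.90, FER1 with FER3 at 0.87 and FER1 with FER4 at 0.81. CSD1 and CSD2 correlated at 0.86. Among 14699 other probe sets, the one most like CSD2 was that of CCS (r = 0.87), followed by AT2G44380 and AT1G67330 (0.78 each). Those most like CSD1 were ARPN (0.86), AT1G22440 (0.84) and AT1G67330 (0.82). For FER1 they were AT3G49160 (0.85), AT1G03250 and the unnamed 261448_at (0.77 each). For FER3 the closest were the unnamed 258856_at (0.88) and 266766_at (0.86) and AT1G08310 (0.85), and for FER4 they were 258856_at (0.86), AT3G49160 (0.86) and the unnamed 246071_at (0.85). FSD1 was most like the unnamed 260379_at (0.86), AT1G64380 (0.85) and the unnamed 250950_at (0.80). These correlations hold the differences between groups as well as the spread of replicates within them, which for FSD1 at 3 h was the wider (group means of 10.50 to 11.28 on the log2 scale, beside an SD within groups of 2.59). They carry no test.

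Of 24 enzymes that remove hydrogen peroxide, the product of the dismutases, 6 had a listed probe set. TAPX, the ascorbate peroxidase of the thylakoids, was the only 1 of the 6 called in any pairwise comparison. At 1 week it was at 645, 578 and 795 in pnp1-1 on +P, against 1604, 1752 and 1355 in WT on +P. TAPX fell by 1.23 ± 0.21 in pnp1-1 on +P at 1 week (adjusted p = 0.00193), by 0.80 ± 0.21 on -P at 3 h (adjusted p = 0.0409) and by 0.88 ± 0.21 on +P at 3 h (adjusted p = 0.0167). It also fell by 1.26 ± 0.21 on -P in WT at 1 week (adjusted p = 0.00231). In each of these comparisons the groups did not overlap, and 0 of the 6 enzymes were called higher. Between the genotypes on -P at 1 week TAPX overlapped and was not called (-0.13 ± 0.21). The same held for -P minus +P in pnp1-1 at 1 week (-0.16 ± 0.21). SAPX, the ascorbate peroxidase of the stroma, named after its values were seen, was 2.35-fold higher on -P in WT at 1 week with groups apart, but was not called (1.23 ± 0.36, adjusted p = 0.0687). GR1, a glutathione reductase named in the same way, lay above WT in all pnp1-1 arrays at 3 h, by 0.70 ± 0.47 on -P (adjusted p = 0.587) and 0.81 ± 0.47 on +P (adjusted p = 0.385), and was not called either. 2CPA and GR2, also named in this way, were lower with groups apart and were not called. For 2CPA the difference at 1 week was -0.33 ± 0.12 on -P in WT (adjusted p = 0.152). It was -0.22 ± 0.12 for pnp1-1 minus WT on +P at 1 week (adjusted p = 0.338). For GR2 it was -0.20 ± 0.29 for pnp1-1 minus WT on -P at 3 h. The median of the 6 was -0.14 for pnp1-1 minus WT on +P at 1 week and -0.31 for -P minus +P in WT at 1 week, beside 0.05 and 0.02 over all probe sets.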

How the data were processed

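The authors deposited 1 intensity per probe set and array on a linear scale. GCRMA, affy and limma are named per the submitters' processing notes, without versions or steps, and which arrays were normalized together is not known. Here log2 was taken and 1 mean per group was fitted to the 24 arrays with limma 3.58.1 in R 4.3.3 (16 residual and 1.40 prior degrees of freedom), leaving out 64 control probe sets, so 22746 were tested in 12 comparisons: 8 pairwise ones and 4 interactions. A call is a Benjamini-Hochberg adjusted p under 0.05 over all probe sets of a comparison. Errors cover the spread between replicates of at least 4 seedlings, and the number of arrays limits the precision.

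The 6 genes and 9 further gene lists (103 genes) were chosen with earlier results of these data known. All 6 genes are named in every comparison, list genes where called with groups that do not overlap (at most 4 per list), and for each of the 6 the 3 probe sets of highest correlation. Outside this rule RCA, EXPA7, BHLH101, PYE, SAPX, GR1 and AT3G15640 are named, after their values were seen. The annotation of the probe sets used here lists 17 of the 103 genes and 0 of the 6, whose names come from the choice of probe sets; all 6 loci are in the gene table.

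Same-numbered arrays deviated together (correlation over probe sets above 0.1 for all 3 numbers) for genotype on -P at 3 h (0.160, 0.355 and 0.310) and at 1 week (0.546, 0.623 and 0.600) and for -P against +P at 3 h in pnp1-1 (0.230, 0.433 and 0.422) and WT (0.671, 0.466 and 0.687), from the data alone. The fit was tested on simulated data. Alternatives changed the floor, fit, prior, array weights, scaling, filter, block and replicates.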

Additional observations from a re-analysis of the deposited data

How the results depend on the processing

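With replicate numbers as a block and the compared groups alone, 0 of the 6 genes were called in the 4 pairwise comparisons whose numbers pair, so the block changed no call there. In comparisons whose numbers do not pair, the block gave 0 calls for pnp1-1 against WT on +P at 1 week (2 without it; CSD1 2.17, adjusted p = 0.126) and 0 for the -P response of WT at 1 week (2 without it). For the -P response of pnp1-1 at 1 week it gave 3 calls, losing FER3 (adjusted p = 0.0963) and adding FER1 (0.0113) and CSD1 (0.0427). Array weights, whose estimation stopped before its tolerance, gave 4 calls for pnp1-1 against WT on +P at 1 week and 1 on -P, 5 for the -P response of pnp1-1, and 2 each for genotype by medium at 1 week and for genotype by time on +P, where none was called otherwise. Each time fitted alone gave 5 calls for the -P response of pnp1-1 at 1 week and 4 for that of WT; it cannot be run for the interactions with time. For the -P response of pnp1-1 at 1 week, the compared groups alone gave 4 and probe sets above 16 gave 5. Averaging the alike WT +P replicates left 1 call for genotype on +P. Leaving out the 3 arrays of raised lower quartile, chosen after seeing the data, left 1 call in each -P response at 1 week. Leaving out single arrays gave 1 to 2 calls for genotype on +P and for the -P response of pnp1-1 at 1 week. Counts of calls in this paragraph are given without the share of all probe sets called in the same fit. They are not read as a result about the 6 genes.

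Of the log2 differences of the 6 genes recomputed over all alternatives, 1170 kept their direction and side of the threshold, 28 newly passed it, 15 no longer did and 71 turned sign. Signs turned for values that were not called. With array weights these were, for pnp1-1 minus WT, CSD2 at 3 h on -P (-0.20) and on +P (-0.044) and FER4 at 1 week on +P (-0.038); for -P minus +P in pnp1-1 at 3 h, CSD1 (-0.053) and CSD2 (-0.031); for genotype by medium, FSD1 at 3 h (-1.35) and FER1 at 1 week (-0.18); and for medium by time in WT, FSD1 (-0.84). Without the 3 arrays CSD2 turned for genotype on -P at 1 week (-0.14), and with the pair averaged FSD1 turned for genotype by medium at 1 week (0.0032). The cause was not tested.

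With single arrays left out, pnp1-1 minus WT at 3 h on -P ran from -1.18 to 0.34 for FER1, -0.47 to 0.12 for FER3, -0.67 to 0.27 for FER4, -1.29 to 1.66 for FSD1 and -0.27 to 0.50 for CSD2. On +P at 3 h it ran from -0.049 to 0.54 for FER3, -0.084 to 0.50 for FER4, -1.45 to 1.88 for FSD1 and -0.17 to 0.72 for CSD2. At 1 week it ran from -0.033 to 0.54 for CSD1 and -0.27 to 0.95 for CSD2 on -P, and from -0.079 to 0.21 for FER4 on +P. The -P response in pnp1-1 at 3 h ran from -0.79 to 0.95 for FER1, -0.10 to 0.84 for FER4, -0.61 to 1.38 for FSD1 and -0.021 to 0.35 for CSD2. In WT at 3 h it ran from -1.61 to 2.06 for FSD1, -0.17 to 0.67 for CSD1 and -0.18 to 0.71 for CSD2, and at 1 week from -0.039 to 0.53 for CSD1. Genotype by medium ran from -1.75 to 1.93 for FSD1, -0.52 to 0.32 for CSD1 and -0.57 to 0.32 for CSD2 at 3 h and from -0.20 to 0.019 for FSD1 at 1 week. Medium by time in WT ran from -1.41 to 2.27 for FSD1 and -0.46 to 0.38 for CSD1, and genotype by time on +P from -0.42 to 0.16 for FER4 and -1.75 to 1.58 for FSD1.

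Over all probe sets, counts of calls ranged from 1 (block) to 11395 (array weights) around 1671 for genotype on +P at 1 week, from 8 to 8206 around 374 on -P, from 126 to 9242 around 214 for the -P response of pnp1-1 at 1 week and from 25 to 6383 around 781 for that of WT. At 3 h they ranged from 145 to 4043 around 968 for genotype on -P and from 0 to 3061 around 1686 on +P, from 0 to 3 around 2 for the -P response of pnp1-1 and from 0 to 59 around 0 for that of WT. The interactions ranged from 0 to 4 around 0 for genotype by medium at 3 h, from 2 to 7221 around 18 at 1 week, from 45 to 2516 around 104 for medium by time and from 0 to 2541 around 31 for genotype by time.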

Other observations

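Of 7 genes listed as markers of the response to reactive oxygen, 2 had a listed probe set, AT2G21640 and AT3G28580. AT2G21640 was higher in pnp1-1 in all 4 conditions. At 1 week on +P it was at 2939, 2966 and 2139.6 in pnp1-1, against 243, 161 and 365 in WT (3.45 ± 0.40, 10.9-fold, adjusted p = 5.73e-05). On -P at 1 week it rose by 3.33 ± 0.40 (adjusted p = 0.000123), and at 3 h by 4.41 ± 0.40 on -P and 4.22 ± 0.40 on +P. AT3G28580 rose in pnp1-1 at 1 week by 2.44 ± 0.47 on -P (adjusted p = 0.00955) and by 2.18 ± 0.47 on +P (adjusted p = 0.00874), and was under an intensity of 16 on every array at 3 h, where it was not called. Both genes' groups did not overlap in these comparisons. The median of the 2 for pnp1-1 minus WT at 1 week was 2.88 on -P and 2.82 on +P, beside 0.01 and 0.05 over all probe sets.

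Of 31 genes of iron uptake, transport and its regulation, 3 had a listed probe set: the transcription factors BHLH101, PYE and ILR3. ILR3 was called once, lower in pnp1-1 on +P at 1 week, at 1300.2, 1318 and 1719.6 in pnp1-1, against 1986, 1918 and 1926 in WT (-0.44 ± 0.12, adjusted p = 0.0312). BHLH101 and PYE were not called in any pairwise comparison. At 1 week BHLH101 was at background (4.16 to 5.14) except in WT on +P, which ran from 5.64 to 209. Its groups were apart at 1 week for pnp1-1 minus WT on +P (-3.48 ± 1.56, adjusted p = 0.214). They were also apart for -P minus +P in WT at 1 week (-3.62 ± 1.56, adjusted p = 0.256). The root marker PYK10 was higher in pnp1-1 in all 4 conditions, by 2.39 ± 0.35 on -P and 1.80 ± 0.35 on +P at 3 h and by 2.24 ± 0.35 on -P and 3.46 ± 0.35 on +P at 1 week.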
